A study of Mus musculus with 12 samples.

Results

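Cytosolic ribosomal proteins, together with ribosomal RNA, form the ribosomes that translate messenger RNA. Of their genes, 60 could be followed among 19938 genes on 12 Mouse Gene 1.0 ST arrays of sorted cells from the olfactory mucosa. They were taken by symbol: Rpl or Rps followed by digits and an optional a, x, l or l1, without the Rps6k kinases, plus Rplp0, Rplp1, Rplp2 and Rpsa. Only probe sets assigned to 1 gene symbol were used, and a gene with several was read from the one with the highest mean. Of the 60 genes, 53 encode standard ribosomal proteins, 33 of the large and 20 of the small subunit. The other 7 are paralogues, relatives of a standard gene with a similar sequence: Rpl3l, Rpl7l1, Rpl10l, Rpl32l, Rpl39l, Rps4l and Rps27l. Another 17 symbols that match, among them Rpl3, Rpl11, Rpl32, Rps16 and Rps24, sat only on probe sets with several symbols, and 7 more, Rps27a among them, had no probe set in the annotation used. These 24 genes were not analysed here.

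The cells came from 18 S100a5-tauGFP mice of both sexes, aged 7 to 12 weeks, whose green fluorescent protein (GFP) reports on S100a5, a gene transcribed in olfactory sensory neurons according to their activity. Each mouse spent 40 hours alone in a chamber with clean air flowing at 3.1 L per minute. From 26 hours on it received pulses of 10 seconds every 20 minutes, either of filtered air (vehicle) or of a citrus accord named in the study's title with 5% (odor). Mucosae of 3 mice were pooled, dissociated and sorted, so 3 pools per treatment gave 3 arrays of GFP-positive and 3 of GFP-negative cells, and all 4 groups carry the reporter. The 2 fractions of a pool come from the same mice. The labels do not say which sex went into which pool, nor which cells other than neurons the sorting gate took in. Values are log2 signals, in which a difference of 1 is a doubling, and give no read depth. The number of arrays therefore limits the precision: the median standard error (SE) of a difference between 2 groups was 0.10 for these genes.

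A ribosome is built from a small subunit, which reads the messenger RNA, and a large subunit, which joins amino acids. Each standard protein is present in 1 copy per ribosome apart from the stalk proteins, so cells make them in step. Many of their transcripts begin with a cytosine followed by a run of pyrimidines, the 5′ terminal oligopyrimidine tract, through which growth signalling by mTOR sets how well they are translated. Mature olfactory neurons no longer divide, whereas the mucosa also holds dividing progenitors, supporting cells, glands and blood-borne cells.

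Pyrimidine runs were counted in the sequences around the annotated start sites. RefSeq promoter entries (assembly GRCm38.p6, which need not be the build of the array annotation) were found for 48 of the 60 genes, as 57 start sites. Each entry runs from 250 bases before to 50 bases after the start. A run, called a tract here wherever it lies near the start, was counted where C was followed by at least 7 bases that were all C or T, on the gene's own strand, within 50 bases of the start. It occurred at 37 of 49 start sites of the standard genes (75.5%), at 4 of 8 of the paralogues (50.0%) and at 28.8% of all 32851 promoters in the same table. The motif CCGGAAG, searched on both strands over the whole entry, occurred at 17 of 49 standard sites (34.7%), at 2 of 8 paralogue sites and at 8.9% of all promoters. The 2 patterns may overlap, and neither match shows a used start or a bound factor. The following 30-base windows come from 6 standard genes that were lower in GFP-positive cells and 2 paralogues, of which Rpl7l1 was lower in odor mice. They are shown because the tract is visible in the former and missing from the latter. Lower standard genes without a tract, such as Rplp0, Rpsa and Rps28, and paralogues with one, such as Rpl32l and Rpl39l, are not shown. They are written 5′ to 3′ on the gene's strand, and capitals mark the tract where there is one.
Rps21, chr2:180257399-180257428 (+): ggaggcacgagctaCTTCCTTTCTgcgctc
Rps18, chr17:33955646-33955675 (-): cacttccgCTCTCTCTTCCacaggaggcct
Rps10, chr17:27635226-27635255 (-): cgcgcacgCCCCTTCCTTTCCagcctccgc
Rps9, chr7:3704028-3704057 (+): cgccttgtCTCTCTTTgtctcgggcctgag
Rps12, chr10:23787180-23787209 (-): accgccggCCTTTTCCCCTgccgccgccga
Rps6, chr4:86857347-86857376 (-): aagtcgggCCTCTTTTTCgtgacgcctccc
Rpl10l, chr12:66284387-66284416 (-): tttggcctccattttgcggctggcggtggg
Rpl7l1, chr17:46782642-46782671 (-): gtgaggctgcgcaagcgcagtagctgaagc
In Rps18, Rps10, Rps9 and Rps6 the tract spans the annotated start. In Rps12 and Rps21 the marked tract begins at base 9 and base 35 counted from the annotated start, and so is not at the annotated beginning of the transcript. Only the longest run near a start is marked, and Rps21 has another annotated start site, which is not shown. The windows of Rpl10l and Rpl7l1 hold no such tract.

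The sort separated GFP-positive from GFP-negative cells of mice that all carry the reporter. S100a5 itself, on the same scale, differed by 0.19 (SE 0.10, adjusted p = 0.123) between fractions of vehicle mice and by 0.31 (SE 0.10, adjusted p = 0.0166) in odor mice, by limma with Benjamini-Hochberg adjustment over all 19938 genes, which is the test used throughout. The call in odor mice was lost with cyclic loess (0.20, adjusted p = 0.0796 in limma), without odor GFP-positive replicate 2 (0.28, adjusted p = 0.0566) and without odor GFP-negative replicate 4 (0.20, adjusted p = 0.0726). In vehicle mice S100a5 passed after a second quantile normalization (0.24, adjusted p = 0.0435 in limma) and with the arrays shifted to the same median (0.34, adjusted p = 0.00861). Omp, the marker of mature olfactory neurons, was higher in GFP-positive cells by 0.31 and 0.33 (SE 0.08 each, adjusted p = 0.00549 and 0.00412 in limma). The mean of 8 mature neuron markers lay between 12.3 and 12.6 on the GFP-negative arrays, against 12.9 on every GFP-positive array. Arrays of 1 group correlated with r of 0.986 to 0.996 over all genes, and 2 arrays shared at most 6 identical values.

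Ribosomal protein transcripts were lower in GFP-positive than in GFP-negative cells. In vehicle mice 52 of the 60 genes were lower, 0 were higher and 8 did not pass, where 18.2% of all genes tested were called lower and 29.9% higher. In odor mice 52 were again lower and 0 higher, against 18.7% and 33.5% of all genes. The background depends on how the arrays are scaled: shifted to the same median they gave 14.3% lower and 46.9% higher in vehicle and 15.3% and 58.7% in odor mice, and cyclic loess gave 22.5% and 21.9%, and 24.5% and 20.7%. With either scaling 48 to 53 of the 60 genes were lower. The median log2 difference of the 60 genes was -0.67 in vehicle and -0.75 in odor mice, while that of all genes was 0.06 and 0.13. GFP-positive and GFP-negative arrays did not overlap, with the positive ones lower, for 53 of 60 genes in each treatment, against 22% and 20.4% of all genes. With the positive ones higher this held for 0 genes in vehicle mice, against 35.3% of all genes, and for 1 gene in odor mice, Rpl3l, against 40.4%. Between them, 51 genes were lower in both treatments, 2 in 1 of them and 7 in neither. The vehicle and odor comparisons use different mice and share no array.

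**Figure D1:**
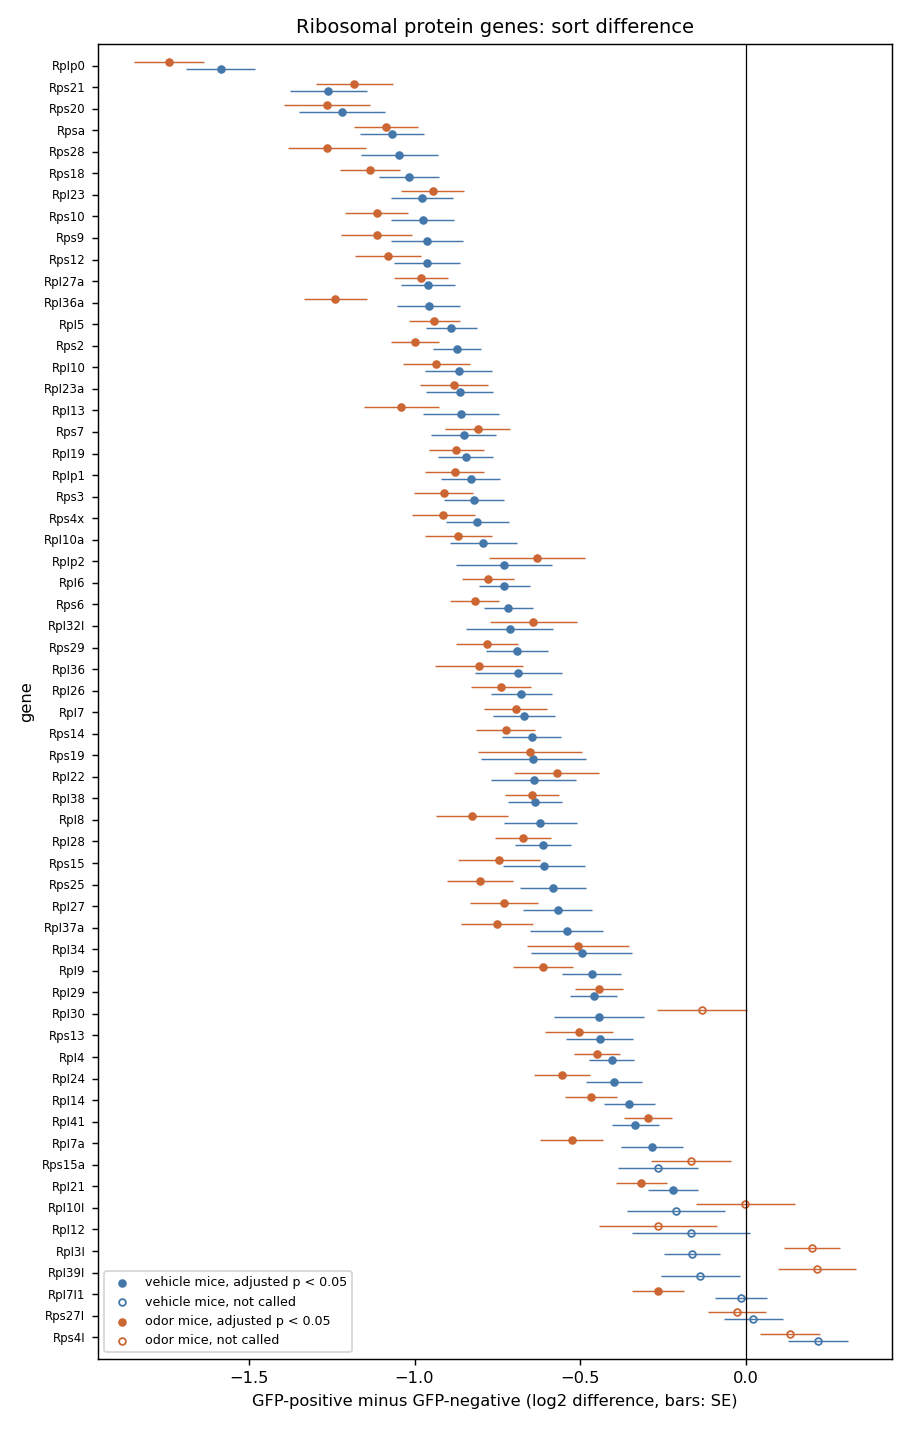
Log2 difference between GFP-positive and GFP-negative cells (horizontal axis) for each of the 60 genes (vertical axis), in vehicle mice (blue) and odor mice (orange). Points are limma differences, bars are their SE, and filled points passed an adjusted p of 0.05; 52 genes lie left of 0 and filled in each treatment, and Rplp0 lies farthest left at -1.59 and -1.74.

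The sizes differed from gene to gene. Of the 52 genes lower in vehicle mice, 6 were lower by at least 1 on the log2 scale, 35 by 0.5 to 1 and 11 by less. In odor mice these numbers were 11, 35 and 6. All 53 standard genes had a difference below 0 in both treatments, with 51 called in vehicle and 50 in odor mice. Small subunit genes had a median of -0.84 in vehicle and -0.91 in odor mice, with 19 of 20 called in each. Large subunit genes had medians of -0.64 and -0.73, with 32 and 31 of 33 called. The difference between the subunits was not tested.

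**Figure D2:**
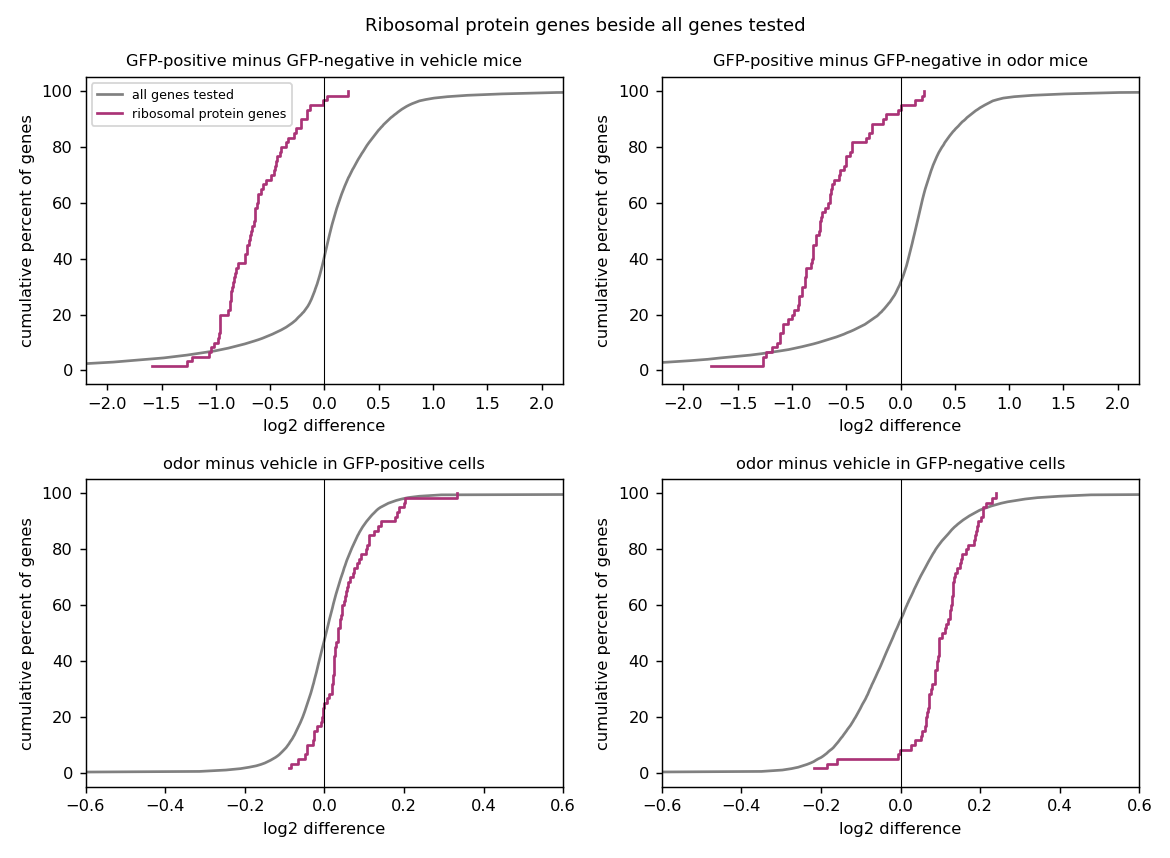
Cumulative percent of genes (vertical axis) up to each log2 difference (horizontal axis), for the 60 ribosomal protein genes (purple) and all 19938 genes tested (grey), in 4 comparisons. In both comparisons of the sort the purple line crosses 50% near its median of -0.67 or -0.75, left of the grey one, and in GFP-negative cells odor minus vehicle crosses at 0.11.

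Among proteins of the large subunit, Rplp0, the base of the stalk that brings elongation factors to the ribosome, had the largest difference of the 60 genes in both treatments. Its GFP-negative arrays read 11.80, 12.07 and 12.12 with vehicle and 12.00, 12.22 and 12.35 with odor. Its GFP-positive arrays read 10.40, 10.45 and 10.38, and 10.54, 10.34 and 10.46. Every GFP-positive array thus lay more than 1 below every GFP-negative one. The log2 difference was -1.59 (SE 0.11, 3.00-fold, adjusted p = 1.66e-07 in limma) in vehicle mice and -1.74 (SE 0.11, 3.34-fold, adjusted p = 6.1e-08) in odor mice.

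Rplp1 and Rplp2, the pairs of small acidic proteins that sit on Rplp0, were lower by less. Rplp1 read 11.91, 12.17 and 12.13 in GFP-negative and 11.26, 11.27 and 11.20 in GFP-positive cells of vehicle mice, a difference of -0.83 (SE 0.09, adjusted p = 1.23e-05 in limma), and it differed by -0.88 in odor mice (adjusted p = 6.61e-06). Rplp2 read 8.08, 8.35 and 8.55 against 7.73, 7.49 and 7.57, a difference of -0.73 (SE 0.15, adjusted p = 0.00116 in limma), and it differed by -0.63 in odor mice (adjusted p = 0.003). The groups did not overlap for either gene. Whether the 3 stalk genes differ from one another was not tested.

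Other large subunit genes followed the same direction. Rpl23, which lies at the face where the subunits meet, read 11.79, 11.90 and 12.05 in GFP-negative and 10.90, 10.96 and 10.94 in GFP-positive cells of vehicle mice, a difference of -0.98 (SE 0.09, adjusted p = 4.62e-06 in limma). In odor mice Rpl23 differed by -0.95 (adjusted p = 5.46e-06). Rpl36a read 10.03, 10.21 and 10.20 against 9.20, 9.21 and 9.15 in vehicle mice, and 10.19, 10.43 and 10.53 against 9.23, 9.01 and 9.18 in odor mice. Its difference was -0.96 (SE 0.10, adjusted p = 6.26e-06 in limma) and -1.24 (SE 0.10, adjusted p = 5.34e-07). The interaction test, which asks whether the sort difference depends on odor, gave -0.28 (SE 0.14, adjusted p = 0.971) for Rpl36a. Rpl10, which joins the large subunit late in its maturation, differed by -0.87 and -0.93 (SE 0.10 each), and Rpl7 by -0.67 and -0.69 (SE 0.09 each).

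In the small subunit, Rps21, Rps20, Rpsa, Rps28 and Rps18 were each lower by more than 1 in both treatments. Rps21, a very small protein of that subunit, read 10.46, 10.47 and 10.66 in GFP-negative and 9.46, 9.17 and 9.17 in GFP-positive cells of vehicle mice, and 10.50, 10.55 and 10.86 against 9.59, 9.33 and 9.44 in odor mice. Its differences were -1.26 and -1.18 (SE 0.12 each, adjusted p = 2.98e-06 and 4.65e-06 in limma). Rps20, of the subunit's head, read 10.20, 10.39 and 10.59 against 9.19, 9.16 and 9.17 in vehicle mice, and differed by -1.22 there and by -1.27 in odor mice (SE 0.13 each, adjusted p = 1.09e-05 and 6.91e-06). Both genes separated the fractions without overlap.

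Rpsa, a small subunit protein also known as the laminin receptor, read 11.57, 11.69 and 11.70 in GFP-negative cells and 10.56, 10.63 and 10.56 in GFP-positive cells of vehicle mice. In odor mice Rpsa read 11.58, 11.78 and 11.93 against 10.78, 10.52 and 10.72. The differences were -1.07 and -1.09 (SE 0.10 each, adjusted p = 2.61e-06 and 1.94e-06 in limma), so the fractions of Rpsa were about as far apart in each treatment. Rps28 differed by -1.05 and -1.26 (SE 0.12 each, adjusted p = 1.63e-05 and 2.72e-06), and Rps18 by -1.02 and -1.13 (SE 0.09 each, adjusted p = 2.31e-06 and 7.53e-07).

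Rps10, Rps9 and Rps6 completed the small subunit genes named here by size or role. Rps10 differed by -0.97 in vehicle and -1.11 in odor mice (SE 0.10 each), and Rps9, near the channel through which messenger RNA enters, by -0.96 and -1.11 (SE 0.11 each). Rps6, the protein that S6 kinases phosphorylate when growth signalling is active, read 12.24, 12.17 and 12.29 in GFP-negative and 11.54, 11.49 and 11.52 in GFP-positive cells of vehicle mice. In odor mice Rps6 read 12.29, 12.31 and 12.50 against 11.56, 11.48 and 11.59. Its differences of -0.72 and -0.82 (SE 0.07 each, adjusted p = 8.19e-06 and 2.26e-06 in limma) are of transcript level and carry no information on phosphorylation.

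**Figure D3:**
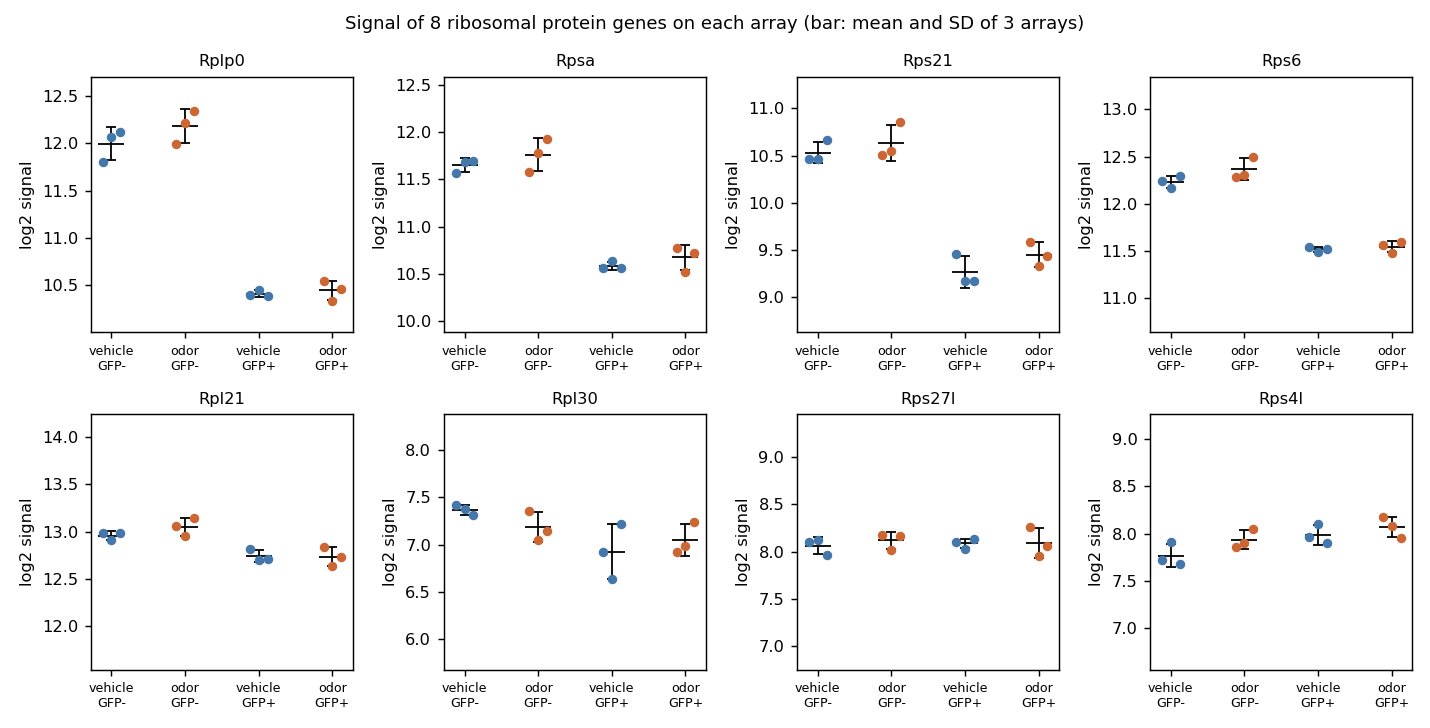
Log2 signal (vertical axis, spanning the same width in each panel) of 8 genes on each array, by treatment and fraction; points are arrays, and the black line and bar are the mean and SD of 3 arrays. Rplp0, Rpsa, Rps21 and Rps6 separate the fractions, Rpl21 does so by -0.22 and -0.32, Rpl30 overlaps in odor mice, and Rps27l and Rps4l overlap in both treatments.

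Some standard genes differed by less, among them Rps15a, Rpl12, Rpl30 and Rpl21. Rps15a, of the small subunit, differed by -0.26 (SE 0.12, adjusted p = 0.092) in vehicle and by -0.16 (adjusted p = 0.267) in odor mice, and did not pass in either. Rpl12, part of the stalk's base, read 6.70, 7.03 and 6.10 in GFP-negative cells of vehicle mice, the widest spread of a group among the ribosomal protein genes named here. These signals lie below 7.58, the median of all gene means, and come from 1 probe set. How well that probe set reads the transcript was not tested. Rpl12 differed by -0.16 (SE 0.18, adjusted p = 0.502 in limma) and -0.26 (adjusted p = 0.228). Rpl30 passed in vehicle mice at -0.44 (SE 0.14, adjusted p = 0.0165) and not in odor mice at -0.13 (adjusted p = 0.423), and its interaction of 0.31 did not pass (adjusted p = 0.971). Rpl21 passed in both, at -0.22 and -0.32 (SE 0.08 each, adjusted p = 0.0316 and 0.00417).

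Of the 7 paralogues, 1 was called lower in vehicle and 2 in odor mice, against 18.2% and 18.7% of all genes, and a difference from the standard genes was not tested. Rpl32l was lower in both, at -0.71 and -0.64 (SE 0.13 each, adjusted p = 0.000722 and 0.00142 in limma). It was read by 1 probe set, and its counterpart Rpl32 was not among the genes followed. Whether the signal of Rpl32l includes Rpl32 transcripts was not tested. Rpl7l1 read 9.15, 9.27 and 9.15 in GFP-negative and 9.15, 9.20 and 9.18 in GFP-positive cells of vehicle mice, a difference of -0.01 (SE 0.08, adjusted p = 0.91). In odor mice Rpl7l1 read 9.26, 9.44 and 9.49 against 9.05, 9.11 and 9.23, a difference of -0.27 (SE 0.08, adjusted p = 0.0132). Its counterpart Rpl7 was lower in both treatments, as given above.

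Rps27l, a p53 target in other tissues, read 8.11, 8.12 and 7.96 in GFP-negative and 8.10, 8.03 and 8.13 in GFP-positive cells of vehicle mice, a difference of 0.02 (SE 0.09, adjusted p = 0.869), and it differed by -0.03 in odor mice (adjusted p = 0.817). Rps4l differed by 0.22 and 0.13 (SE 0.09 each, adjusted p = 0.0654 and 0.233), whereas its counterpart Rps4x differed by -0.81 and -0.91 (SE 0.10 each). Rpl10l, a gene best known from testis, differed by -0.21 in vehicle mice and by 0.00 in odor mice (SE 0.15 each), and Rpl39l, also known from testis, by -0.14 and 0.22 (SE 0.12 each). None of the differences of Rps27l, Rps4l, Rpl10l and Rpl39l passed. The sign of each turns in at least 1 treatment with another scaling of the arrays or another summary of the probe sets. As a set the paralogues gave lower signals than the standard genes. On vehicle GFP-negative array 1 all 60 genes had a mean of 10.38 and the 53 standard genes one of 10.82. The lowest mean of the 60 genes was 4.56, against a median of 7.58 for all gene means. Whether low signal hides a sort difference of single paralogues was not tested. In vehicle mice Rps4l was called higher with 2 other scalings, at 0.29 after a second quantile normalization and 0.37 with the arrays shifted to the same median (adjusted p = 0.0183 and 0.003 in limma).

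Most genes were read by several probe sets, which gives a check within the arrays. The 60 genes have 216 single-symbol probe sets, with more than 1 for 39 genes and up to 14. Tested one by one, 206 were lower in vehicle and 207 in odor mice, and 0 were higher, where 18.3% and 18.9% of all 21789 single-symbol probe sets were lower. All probe sets lay below 0 for 38 of the 39 genes in each treatment. The exception was Rps4l, whose 2 probe sets differed by 0.22 and -0.09 in vehicle mice. The probe sets of Rps21 lay farthest apart in vehicle mice, at -1.26 and -0.84. Ribosomal protein genes have many near-identical processed copies in the genome, so probe sets of 1 gene are not independent and their signals can include such copies.

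**Figure D4:**
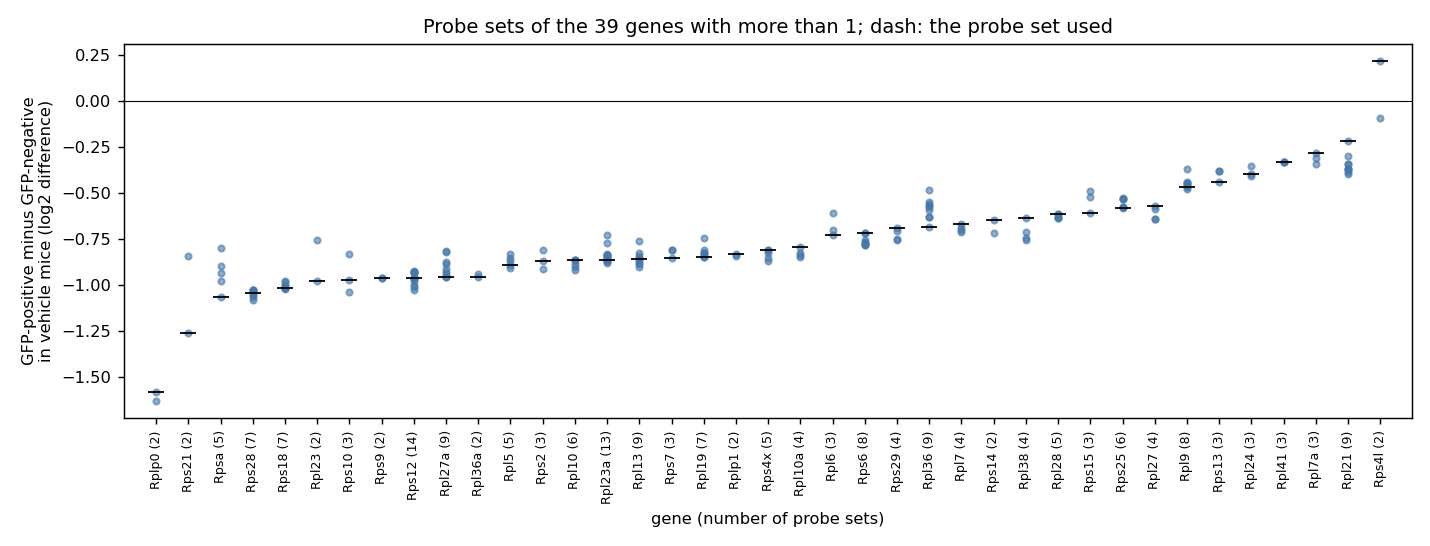
Log2 difference between GFP-positive and GFP-negative cells of vehicle mice (vertical axis) for each probe set of the 39 genes with more than 1 (horizontal axis, number of probe sets in brackets). Points are probe sets and the dash is the one used; all lie below 0 for 38 genes, and the 2 of Rps4l lie on both sides of it.

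The size of the difference varied between pools of mice, but its direction did not. Taken within each pool, the median over the 60 genes of GFP-positive minus GFP-negative was -0.51, -0.69 and -0.81 in vehicle pools 1, 2 and 4. It was -0.57, -0.85 and -0.87 in odor pools 2, 3 and 4. Over all genes the same medians lay between 0.03 and 0.17. With the pool of mice as a fixed block, 53 genes were lower in vehicle and 52 in odor mice, and 0 were higher.

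Markers of other cell types moved with the sort. All 14 leukocyte markers, such as Ptprc and S100a8, were lower in GFP-positive cells, by a median of -2.91 in vehicle and -3.49 in odor mice, and their mean per array was 7.21 to 7.41 in GFP-positive and 10.2 to 10.7 in GFP-negative cells. All 6 sustentacular markers were lower in both treatments, and of the 6 progenitor markers 6 and 5 were. The progenitor markers had a mean per array of 5.74 to 5.95 against 7.32 to 7.84. Of 4 markers of Bowman's gland 4 and 3 were lower, of 4 of horizontal basal cells 2 and 2, of 3 of ensheathing glia 2 and 2, of 6 of endothelial cells and fibroblasts 3 and 3, and the 1 erythroid marker in both. Of 8 mature neuron markers 7 were higher in each treatment, and of 6 immature neuron markers 2 were higher and 3 lower. Of the 4 genes listed as respiratory markers, Foxj1, Dnah5, Cdhr3 and Krt8, 2 were higher and 1 lower. Whether these 4 genes mark only respiratory cells in this tissue was not checked. Of all genes, 18.2% were lower and 29.9% higher in vehicle and 18.7% and 33.5% in odor mice. Some of these calls are lost under other settings, as for Bpifb9b, Muc5b, Krt5 and Fabp7 in vehicle and Bpifb9b, Krt5 and Cdh5 in odor mice. Array signals have no true zero, so no marker can be called absent. The part of these cell types in the lower ribosomal protein signal was not tested, and in pooled cells fewer cells of a type and less RNA per cell cannot be told apart.

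Other parts of the translation machinery, given from lists of known members, held genes called in either direction. Fau and Rps3a1, ribosomal proteins whose symbols the rule leaves out, were lower at -0.83 and -0.98 in vehicle and -0.75 and -1.15 in odor mice (limma adjusted p of 0.000195 or less). In vehicle mice 11 of 33 initiation factors were higher and 6 lower in GFP-positive cells, and with odor these counts were 6 and 11. As shares these are 33.3% and 18.2% with vehicle, close to the 29.9% and 18.2% of all genes, and 18.2% and 33.3% with odor, against 33.5% and 18.7%. A change of counts between treatments is not a test of odor, and the interaction test passed for 1 of all 19938 genes. Set against the mean of the 6 GFP-negative arrays, the median of the 33 initiation factors was -0.06 on vehicle array 4 and 0.06 on odor array 4. Pabpc1, which binds the poly(A) tail, read 12.79, 12.84 and 12.85 in GFP-negative and 12.15, 12.10 and 12.14 in GFP-positive cells of vehicle mice, and was lower by -0.70 and -0.81 (SE 0.08 each) in vehicle and odor mice. Eif3f differed by -0.57 and -0.72 (SE 0.09 each) and Eif5 by -0.76 and -0.68 (SE 0.09 each). Eif2b4, part of the factor that recharges the initiator complex, was higher by 0.55 (SE 0.11, adjusted p = 0.00138 in limma) in vehicle mice.

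Of 12 elongation and release factors, 2 were higher in each treatment (16.7%) and 4 and 5 lower (33.3% and 41.7%), against 29.9% and 33.5% of all genes higher and 18.2% and 18.7% lower. Eef1b2, which reloads the elongation factor that carries transfer RNA, read 10.65, 10.93 and 10.98 in GFP-negative and 9.79, 9.58 and 9.41 in GFP-positive cells of vehicle mice, and differed by -1.26 and -1.42 (SE 0.14 each, adjusted p = 1.17e-05 and 3.53e-06 in limma). Eef1a2, the form of that factor found in neurons and muscle, went the other way, reading 11.89, 11.91 and 11.62 against 12.35, 12.37 and 12.32, a difference of 0.54 and in odor mice 0.61 (SE 0.10 each, adjusted p = 0.000769 and 0.000289). Eef2k, the kinase that restrains elongation, was higher by 0.55 and 0.54 (SE 0.09 each), and Tpt1 differed by -0.52 in both treatments (SE 0.07 each). Of 11 partners of the nascent chain and of the subunits, 3 were higher and 4 lower with vehicle, and 1 and 4 with odor, so 36.4% were lower in each treatment. With 12 and 11 genes a list, calls of 1 or 2 genes move these shares. Among them Naca differed by -0.38 and -0.55 (SE 0.08 each), and Btf3l4 by 0.43 and 0.49 (SE 0.09 each).

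Lists of genes that build ribosomes are read against the same shares of all genes, 29.9% higher and 18.2% lower with vehicle and 33.5% and 18.7% with odor. Here too, a change of counts between treatments is not a test of odor. Of 28 genes of small nucleolar ribonucleoproteins and nucleolar factors, 7 were higher and 4 lower with vehicle (25% and 14.3%), and 3 and 7 with odor (10.7% and 25%). Npm1, an abundant nucleolar protein, differed by -0.46 and -0.86 (SE 0.12 each), and Naf1, an assembly factor of box H/ACA particles, by 0.84 and 0.55 (SE 0.11 each). Of 31 subunit assembly and export factors, 13 were higher and 2 lower with vehicle (41.9% and 6.45%), and 8 and 6 with odor (25.8% and 19.4%). Set against the mean of the 6 GFP-negative arrays, the medians of the nucleolar and assembly lists were -0.12 and -0.09 on vehicle array 4. On odor array 4 they were 0.07 and 0.09. Dimt1, an RNA methylase of the small subunit, was higher by 0.83 and 0.71 (SE 0.14 each), and Rrp12 by 0.52 and 0.45 (SE 0.07 each). Of 20 genes of RNA polymerase I and its factors, which transcribe ribosomal RNA, 5 were higher and 3 lower with vehicle, and 6 and 4 with odor, shares of lower genes (15% and 20%) near those of all genes, with Taf1d at -2.13 and -2.16 (SE 0.20 each). Of 20 genes of growth signalling to ribosomes, 4 and 5 were higher and 3 and 6 lower (15% and 30%). Myc, a transcription factor that drives ribosome production, read 8.54, 9.16 and 8.85 in GFP-negative and 6.58, 6.95 and 6.49 in GFP-positive cells of vehicle mice, a difference of -2.17 there and of -2.35 in odor mice (SE 0.25 each, adjusted p = 2.03e-05 and 9.27e-06 in limma).

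The start-site sequences can be set beside these differences as a description. Of the standard genes with a promoter entry, the 34 with a pyrimidine tract had a median difference of -0.70 in vehicle and -0.76 in odor mice. The 8 without one, Rplp0 and Rps28 among them, had medians of -0.90 and -0.93. In vehicle mice the former ranged from -1.26 to -0.16 and the latter from -1.59 to -0.40, so the ranges overlapped.

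Odor against vehicle was compared within each fraction. In GFP-positive cells 0 of 60 ribosomal protein genes passed in limma, where 0.00502% of all genes did, and the smallest adjusted p was 1. At an unadjusted p under 0.05 there were 2 of 60 genes, against 1.3% of all genes. The median difference was 0.03, against 0.00 for all genes, and 45 of 60 genes lay above 0. Odor arrays lay above vehicle arrays without overlap for 1 gene, Rpl3l, against 4.49% of all genes, and below them for 0 genes, against 3.45%. The 5 genes with the smallest p were Rpl3l, at 0.20 (SE 0.08, unadjusted p = 0.0333 in limma), Rpl10l, at 0.33 (SE 0.15, unadjusted p = 0.0435), Rps21, at 0.18 (SE 0.12), Rps15a, at 0.19 (SE 0.12), and Rpl29, at 0.11 (SE 0.07).

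In GFP-negative cells 0 of 60 genes passed as well, with 0% of all genes called and a smallest adjusted p of 0.732 in limma. Here 2 of 60 genes had an unadjusted p under 0.05, against 6.53% of all genes. The median difference was 0.11, against -0.01 for all genes, and ran from 0.07 after a second quantile normalization to 0.17 with array weights. Of the 60 genes, 55 lay above 0, as did all 20 standard genes of the small subunit. In either fraction the genes shifted together on single arrays, so counts above 0 are not counts of independent genes. Odor arrays lay above vehicle arrays without overlap for 5 genes, Rpl9, Rpl27, Rpl28, Rpl29 and Rps12, against 2.79% of all genes, and below them for Rpl3l, against 4.65%. Rpl7l1, with the smallest p, read 9.15, 9.27 and 9.15 in vehicle and 9.26, 9.44 and 9.49 in odor mice, a difference of 0.21 (SE 0.08, unadjusted p = 0.0217 in limma). Rpl36a differed by 0.24 (SE 0.10, unadjusted p = 0.0277), Rpl8 by 0.23 (SE 0.11), Rps25 by 0.21 (SE 0.10) and Rpl9 by 0.19 (SE 0.09).

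The GFP-negative arrays of 1 treatment did not lie at 1 level. Set against the mean of the 6 GFP-negative arrays, the median of the 60 genes was -0.12, -0.06 and 0.02 on vehicle arrays 1, 2 and 4, and -0.06, 0.03 and 0.19 on odor arrays 2, 3 and 4, so the treatments overlapped. Odor array 4 was highest, with 57 of 60 genes above their mean. Without it the median difference of odor minus vehicle was 0.04, and without odor array 2 it was 0.18. On the same arrays the 14 leukocyte markers had median shifts of -0.21, -0.17 and 0.01, and -0.17, 0.19 and 0.29. The 8 mature neuron markers had 0.09, 0.07 and -0.13, and 0.14, -0.08 and -0.14. The part of these cell types in the shift of the ribosomal protein genes was not tested.

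**Figure D5:**
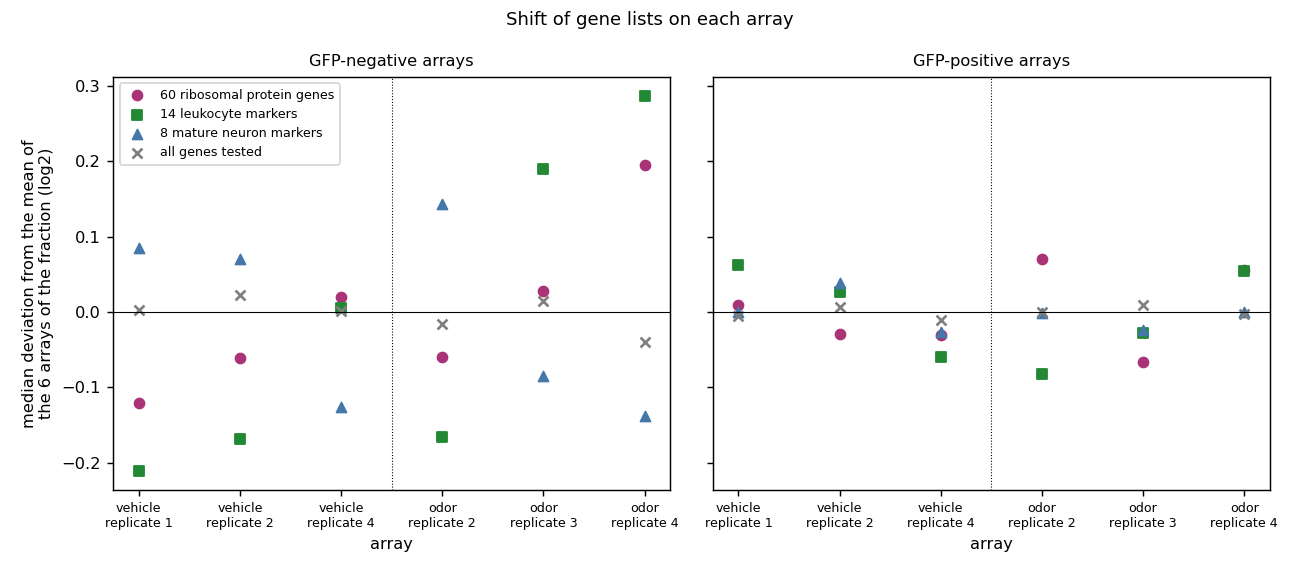
Median deviation of a gene list from the mean of the 6 arrays of the fraction (vertical axis, log2) on each array (horizontal axis), for the 60 ribosomal protein genes, 14 leukocyte markers, 8 mature neuron markers and all genes. On GFP-negative odor array 4 the ribosomal protein genes lie at 0.19 and the leukocyte markers at 0.29, whereas all genes stay close to 0.

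On the GFP-positive arrays the same median shifts of the 60 genes were smaller, at 0.01, -0.03 and -0.03 in vehicle and 0.07, -0.07 and 0.06 in odor mice. The interaction of odor and sort passed for 0 of 60 genes, where 0.00502% of all genes passed, with a smallest adjusted p of 0.971 in limma. At an unadjusted p under 0.05 it had 2 of 60 genes, Rpl3l and Rpl7l1, against 4.23% of all genes. A sort difference that depended on the odor was thus not detected for these genes with 3 pools per treatment. What size could have been detected was not tested.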

How the data were processed

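RNA abundance was measured on 12 arrays, 3 in each of 4 groups, from 6 pools of 3 mice. The log2 signal per probe set was deposited by the authors, who, per the submitters' processing notes, used Affymetrix Expression Console. The version, summarization and scaling between arrays were not given in the sources used here. All values were used as deposited, with 0 columns of other samples and no filter on low values. Of 35556 probe sets, 21789 had 1 symbol, and the one with the highest mean was kept for each of 19938 genes. All 60 symbols matched the gene reference.

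The 4 groups were fitted together with limma 3.58.1 (R 4.3.3). No replicate block was used, tests were moderated and two-sided, with Benjamini-Hochberg adjustment over all genes and a threshold of 0.05. The fit was tested on simulated data drawn independently for each gene and array. That test therefore did not cover correlation within pools or between genes. Means carry the SD of 3 arrays. Figures were drawn with Python 3.11.15 and matplotlib 3.10.9. Alternatives covered scaling, low genes, probe sets, array weights, the samples fitted, replicate blocks and leaving out each array. One alternative was chosen after seeing the data: a replicate block by sample code number in a fit of only the GFP-positive arrays.

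Fractions of 1 treatment and title number come from the same mice, and their deviations from the group means correlated with r of 0.07 to 0.11 in vehicle and 0.12 to 0.25 in odor mice. Across treatments, arrays with the same code number correlated with r of 0.19 to 0.31 when GFP-positive and -0.21 to 0.44 when GFP-negative. With the same title number, r was -0.17 to 0.27 and 0.24 to 0.28. Arrays that shared neither number had r of -0.28 to 0.02 when GFP-positive and -0.52 to 0.34 when GFP-negative. The labels do not say whether the code number marks a batch.

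The members and lists were chosen with earlier results of these data known. In each comparison the text names up to 8 called genes that were most strongly higher and 8 most strongly lower, or, where none was called, the 5 of smallest p. It also names the stalk genes, Rpsa, Rps6, paralogues with their counterparts, Omp and S100a5, and up to 4 called genes of each other list, of which part is given. Rps15a, Rpl12, Rpl30, Rpl21, Rpl32l, Rps12, Rpl27 and Rpl28, and Rps9, Rpl36a, Rpl23, Rpl29, Eif5 and Tpt1 where a comparison's rule did not take them, were chosen after their values were seen.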

Additional observations from a re-analysis of the deposited data

Results flagged for a closer look

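Rpl3l, a paralogue of Rpl3 known from striated muscle, was the 1 ribosomal protein gene flagged for arrays that lay apart in opposite directions. Between treatments its arrays did not overlap, higher with odor in GFP-positive and lower in GFP-negative cells. Between fractions it was lower in GFP-positive cells in every vehicle pool and higher in every odor pool. Odor arrays lay higher without overlap for 4.49% of all genes in GFP-positive cells, and lower for 4.65% in GFP-negative cells. The share of all genes with both was not counted. Other paralogues had differences of opposite sign, such as Rpl39l at -0.14 and 0.22 between fractions, but with arrays that overlapped. On GFP-positive arrays Rpl3l read 5.75, 5.86 and 5.58 in vehicle and 5.88, 6.02 and 5.89 in odor mice. On GFP-negative arrays it read 5.90, 5.86 and 5.90 in vehicle and 5.62, 5.83 and 5.73 in odor mice. The margins are small: both fractions of vehicle pool 2 read 5.86 after rounding, and the GFP-positive treatments part between 5.86 and 5.88. All signals of Rpl3l lie below 7.58, the median of all gene means. Its sort difference was -0.16 (SE 0.08, adjusted p = 0.138 in limma) in vehicle mice and 0.20 (SE 0.08, adjusted p = 0.0632) in odor mice, and its odor effect was 0.20 in the positive and -0.16 in the negative fraction. The 2 sort differences, like the 2 odor effects, differ by 0.36, and the interaction test of that difference did not pass (SE 0.12, unadjusted p = 0.01, adjusted p = 0.971 in limma). The pattern was therefore picked by the order of its arrays and not by a test.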

How the results depend on the processing

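The count of lower genes stayed between 48 and 53 over 13 alternatives in each treatment, lowest when arrays were shifted to the same median and highest with cyclic loess, and leaving out 1 array gave 48 to 52 in vehicle and 50 to 52 in odor mice. Of the 52 genes called lower, 48 kept their call in every one of 19 alternatives in each treatment. The others were Rpl21, Rpl30, Rpl34 and Rpl7a in vehicle and Rpl21, Rpl34, Rpl41 and Rpl7l1 in odor mice, and all 52 stayed below 0. The median moved from -0.80 (cyclic loess) to -0.53 (arrays shifted to the same median) in vehicle and from -0.89 to -0.61 in odor mice. That shift also moved the median of all genes to 0.20 and 0.27 and their calls to 46.9% higher and 14.3% lower in vehicle and 58.7% and 15.3% in odor mice. Cyclic loess gave 21.9% and 22.5%, and 20.7% and 24.5%.

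Genes called higher numbered 1 in vehicle mice with a second quantile normalization, with the shift and with array weights (Rps4l), and 0 to 1 with 1 array left out, 1 without GFP-negative replicate 2 (Rps4l). In odor mice they numbered 3 with the shift (Rpl3l, Rpl39l and Rps4l), 1 with the pool as a random replicate block (Rpl3l), and 0 to 2 with 1 array left out, 2 without GFP-negative replicate 3. No replicate block gave a call of odor against vehicle or of the interaction. Title numbers as a replicate block gave a median of 0.07 in GFP-positive cells for odor minus vehicle, and 1 array left out gave -0.0005 (without odor replicate 2) to 0.08.

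Signs turned, without a call, in vehicle mice for Rpl7l1 (0.13 with the shift, 0.0054 with array weights, -0.035 to 0.026 with 1 array left out), Rpl39l (0.0096 with the shift), Rps27l (-0.094 with cyclic loess, -0.013 with array weights, -0.027 to 0.052 with 1 array left out) and Btf3 (0.081 with the mean of probe sets). In odor mice they turned for Rpl10l (0.14 with the shift, -0.14 to 0.17 with 1 array left out), Rps4l (-0.0016 with cyclic loess, -0.031 with the mean of probe sets), Rps27l (0.035 with the second quantile normalization, 0.11 with the shift, -0.11 to 0.043 with 1 array left out) and Srp9 (0.028 with the mean of probe sets). The cause was not tested.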
